A study of Mus musculus with 2 samples.

Results

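De novo fatty acid synthesis was described through 10 genes, chosen by symbol from the 32285 genes of the count matrices: Slc25a1, Acly, Acss2, Acaca, Acacb, Fasn, Olah, Me1, Thrsp and Mlxipl. All of them are listed in both matrices. Back skin and preputial glands (PG) were taken from 3 male wild type C57BL/6 mice at an age of 52 weeks, the samples of each tissue were combined, and single-cell RNA sequencing was carried out on 1 library per tissue. PGs are paired glands beside the penis that make a lipid-rich secretion, and the study asked how their sebocytes (pSEB) differ from those of the skin sebaceous gland (sSEB). No treatment or genotype separated the groups. The skin library held 37675226 UMIs and the PG library 26288071. With 1 library per tissue there were no replicates, so no test between groups and no p-value is given. Tissue and library cannot be told apart. Values are unique molecular identifiers (UMIs) summed over the cells of a class and scaled to 1000000 UMIs of that class (CPM). Exact intervals at the 95% level account for counting alone and say nothing of variation among mice.

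Fatty acid synthesis from small precursors runs in the cytosol. Citrate leaves the mitochondria through the carrier Slc25a1, ATP citrate lyase (Acly) splits it into acetyl-CoA and oxaloacetate, and acetyl-CoA synthetase (Acss2) makes acetyl-CoA from acetate. Acetyl-CoA carboxylase turns acetyl-CoA into malonyl-CoA and has a cytosolic form, Acaca, and a form at the mitochondrial outer membrane, Acacb, whose product is known to restrain fatty acid oxidation. Fatty acid synthase (Fasn) builds the chain and normally releases palmitate, whereas the separate thioesterase Olah can release shorter chains from it. Malic enzyme (Me1) supplies NADPH. Mlxipl (ChREBP) is a carbohydrate-responsive transcription factor, and Thrsp (Spot 14) is a lipogenic regulator of liver and fat. Sebocytes fill with lipid while they mature and then burst, so that their content becomes sebum.

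A barcode was kept as a cell if it showed 500 or more genes, 1000 or more UMIs and a mitochondrial share of 10% or less, which left 8899 cells of skin and 4699 of PG. No kept barcode occurred in both libraries, whose barcode lists had only 77142 entries in common. Classes were assigned cell by cell from fixed markers that include none of the 10 genes. Sebocyte-like cells (SEB) needed UMIs of at least 4 of 11 markers, such as Mgst1, Soat1, Plin2, Scd1 and Pparg, and were divided into late, intermediate and early SEB by the share of 6 late markers. The gate found 37 SEB in skin, 0.416% of its cells, with 15 late, 7 intermediate and 15 early SEB. In PG it found 700 SEB, 14.9% of the cells, with 50 late, 385 intermediate and 265 early SEB. The median SEB held 4759 UMIs in skin and 5381 in PG, and the median late SEB held 4426 and 8217.

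The gate chose SEB by sebocyte markers, so the presence of these markers in late SEB is no support for the class. Summed over the class, late SEB held UMIs of all 11 sebocyte markers in skin and 10 in PG, Awat1 being at 0 UMIs there. Some of their late markers differed in level. Awat2, a wax synthase, stood at 7268 CPM in late pSEB and 87.8 CPM in late sSEB, whereas Far2, a fatty acyl-CoA reductase, stood at 2.65 and 502 CPM. Soat1 was alike, at 1913 CPM in late pSEB and 1995 CPM in late sSEB. Cidea (580 and 3576 CPM) and Elovl3 (47.7 and 402 CPM) were found in both and were higher in late sSEB. Markers of adipocytes, the other lipid-filled cells of skin, were at 0 UMIs in late SEB of both tissues. Cells were also clustered, but clusters with several gated SEB were divided once more, and clusters were named by the gate. The clustering is therefore no independent check of the gate. It gave a cluster of late SEB in skin (15 cells) but none of early SEB. There, 13 of the sSEB sat in a cluster of 36 cells that did not qualify. Over the 7 intermediate sSEB, the suprabasal keratinocyte markers made up 164 of 10000 UMIs, with 6.03 in the median cell. The SEB limit of PG was 37.1 marker UMIs per 10000, and 112 cells lay between 29.7 and 46.4, beside 700 cells called SEB. The mitochondrial limit removed 37 of 87 late pSEB (42.5%) and 8 of 23 late sSEB (34.8%), but 9.0% of the basal keratinocytes of PG and 0.906% of those of skin.

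The upstream sequences of 4 of the genes are shown because the genes stand for 4 different patterns below: Fasn, detected in SEB of both tissues, Olah, found in pSEB and not in sSEB, Acss2, higher in late sSEB than in late pSEB, and Thrsp, absent from SEB. Each sequence is the 250 bases before the transcription start in RefSeq on GRCm38.p6, 5′ to 3′ on the strand of the gene. Capitals mark every match, on either strand, to the CCAAT box (CCAAT), GC box (GGGCGG), E-box (CACGTG), sterol element (TCACNCCAC) or TATA box (TATAAA). The Fasn window is chr11:120824548-120824797 on the minus strand, that of Olah is chr2:3366570-3366819 on the minus strand, that of Acss2 is chr2:155517793-155518042 on the plus strand and that of Thrsp is chr7:97417551-97417800 on the minus strand.
Fasn: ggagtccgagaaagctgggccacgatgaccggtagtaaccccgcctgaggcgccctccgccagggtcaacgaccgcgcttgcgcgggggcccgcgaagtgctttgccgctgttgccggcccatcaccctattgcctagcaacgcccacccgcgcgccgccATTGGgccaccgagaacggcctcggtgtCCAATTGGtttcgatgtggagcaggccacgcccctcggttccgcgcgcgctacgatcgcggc
Olah: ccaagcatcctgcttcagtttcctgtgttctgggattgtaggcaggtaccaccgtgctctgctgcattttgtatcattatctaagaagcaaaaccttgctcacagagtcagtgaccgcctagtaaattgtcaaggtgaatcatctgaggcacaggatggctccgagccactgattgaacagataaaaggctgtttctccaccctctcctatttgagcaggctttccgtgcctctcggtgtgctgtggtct
Acss2: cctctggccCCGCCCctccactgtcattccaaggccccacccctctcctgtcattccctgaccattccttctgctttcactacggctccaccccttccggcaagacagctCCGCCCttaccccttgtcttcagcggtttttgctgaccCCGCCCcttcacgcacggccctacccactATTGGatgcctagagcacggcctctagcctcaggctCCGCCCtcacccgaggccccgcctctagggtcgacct
Thrsp: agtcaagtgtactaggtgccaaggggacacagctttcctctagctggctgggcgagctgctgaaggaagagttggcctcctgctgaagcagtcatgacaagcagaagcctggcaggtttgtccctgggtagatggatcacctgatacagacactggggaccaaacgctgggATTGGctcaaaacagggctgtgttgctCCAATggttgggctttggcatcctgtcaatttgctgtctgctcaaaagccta
Fasn held 3 CCAAT boxes, Thrsp held 2, and Acss2 held 1 CCAAT box and 4 GC boxes, while the Olah window held none of the 5 motifs. The Olah window lies within the annotated gene (2:3341982-3397210), so it belongs to an internal start. The same holds for the only windows of Acaca and Acacb and for 1 window each of Me1 and Mlxipl. The bases before the outermost starts of Olah, Acaca and Acacb were not read. All 10 genes had at least 1 upstream window. Over their 12 windows a CCAAT box was present in 7, a GC box in 5, an E-box in 2 and a sterol element and a TATA box in 1 each. The sterol element (Mlxipl) and the TATA box (Acacb) lay in windows of internal starts. Over all 32841 windows of the annotation the shares were 33.9% for the CCAAT box, 32.7% for the GC box, 6.02% for the E-box, 1.05% for the sterol element and 12.4% for the TATA box. These are matches of letters and no measure of binding.

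Most of the 10 genes were higher in SEB than in keratinocytes of the same tissue, and most were highest in late SEB. In PG, SEB held 25.8% of all UMIs of kept cells but 83.5% of the UMIs of Acacb, 81.1% of those of Olah, 68.2% of those of Fasn and 65.1% of those of Acss2. For Me1, Slc25a1 and Acly the share was between 57.0% and 58.3%, and for Acaca it was 40.0%. In skin, where SEB held 0.703% of the UMIs, they contributed 36.9% of the UMIs of Acacb, 22.9% of Acss2, 8.48% of Slc25a1, 4.41% of Fasn, 3.34% of Acly and 3.22% of Me1. Thrsp had no UMI in any SEB.

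**Figure D1:**
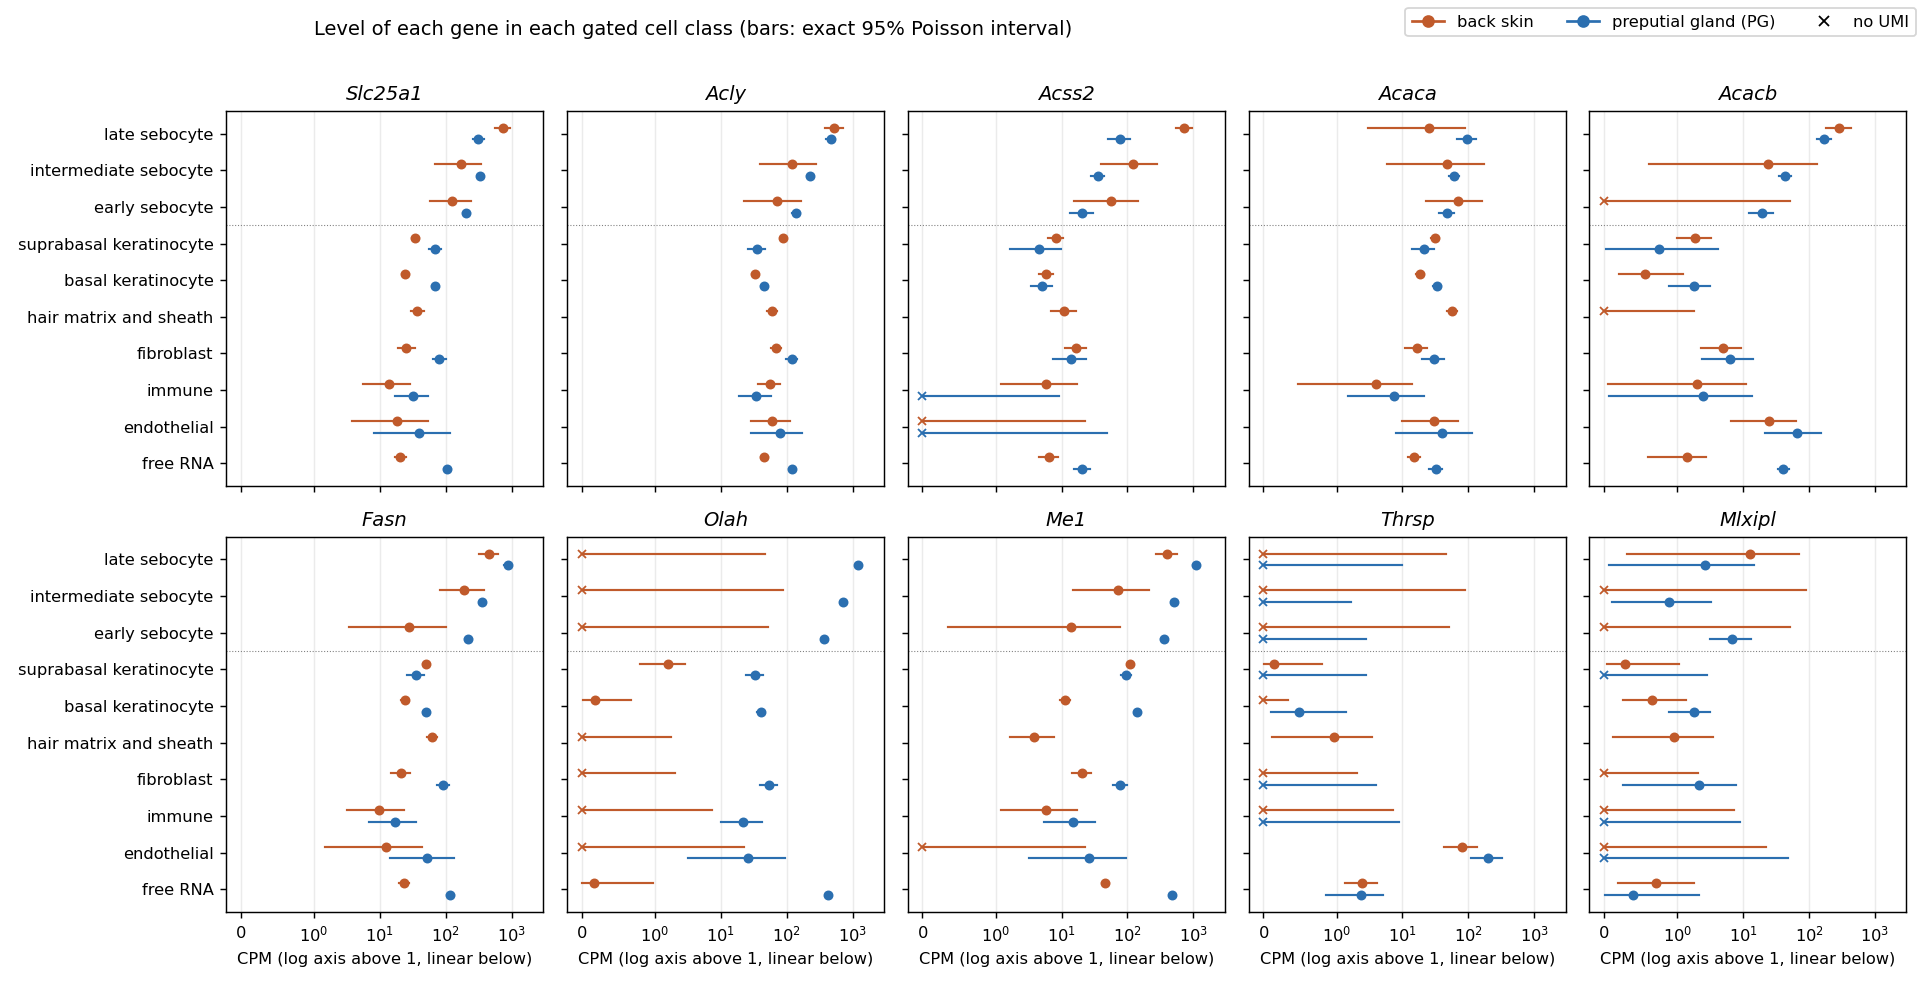
Level of each of the 10 genes (CPM, logarithmic above 1 and linear below) in the sebocyte stages and other cell classes of back skin and PG, with exact 95% Poisson intervals, and in barcodes of at most 100 UMIs (free RNA). Crosses mark classes without a UMI. Late SEB stand at the top for most genes in both tissues, Olah is at 0 in all skin SEB, and Thrsp is above 10 CPM in endothelial cells only, among the classes drawn.

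Against keratinocytes, 8 of the 9 assessed genes were at least 2-fold higher in pSEB and none was lower, where 7.58% of 12356 genes were higher and 21.6% were lower by that fold. A gene was assessed where it had at least 10 UMIs over both groups. The median log2 ratio of the 9 genes was 2.33, against -0.18 over all assessed genes. Acacb was 29.9-fold higher in pSEB (47.5 against 1.59 CPM), Olah 16.6-fold, Fasn 7.47-fold, Acss2 7.06-fold, Acly 5.02-fold, Slc25a1 4.21-fold and Me1 3.89-fold. Acaca was 1.91-fold higher, below the limit, and Mlxipl was 2.10-fold higher with an interval that included no difference (12 against 11 UMIs). In skin, 7 of 8 assessed genes were at least 2-fold higher in SEB and none was lower, where 20.7% of 9927 genes were higher and 15.0% lower, with a median log2 ratio of 3.08 against 0.14. Acacb was 116-fold higher in sSEB (24 against 19 UMIs), Acss2 51.7-fold, Slc25a1 13.8-fold, Fasn 7.03-fold, Acly 4.94-fold and Me1 3.71-fold. The skin value of Mlxipl rested on 1 UMI in SEB.

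The genes that supply cytosolic acetyl-CoA were highest in late SEB of each tissue, with 1 exception in PG. Acly was measured at 141 CPM in early, 223 in intermediate and 469 in late pSEB, and at 70.2, 120 and 527 CPM in the same stages of sSEB. Late over early SEB gave a log2 ratio of 1.74 (1.43 to 2.04) in PG and 2.91 (1.57 to 4.60) in skin, where the early value came from 5 UMIs. Slc25a1, at 204, 335 and 313 CPM, levelled off at the intermediate stage of PG. Its late over early log2 ratio was 0.62 (0.29 to 0.94), and late over intermediate pSEB gave -0.10 (-0.39 to 0.18). In skin Slc25a1 was measured at 126, 168 and 740 CPM, with a log2 ratio of 2.55 (1.53 to 3.75). Acss2 was measured at 20.5, 35.7 and 76.8 CPM in PG and at 56.1, 120 and 728 CPM in skin, with log2 ratios of 1.90 (1.10 to 2.72) and 3.70 (2.26 to 5.62).

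Of the carboxylases, Acacb had the largest late over early ratio in PG among the 10 genes. It was measured at 19.0 CPM in early, 43.7 in intermediate and 170 in late pSEB, a log2 ratio of 3.16 (2.47 to 3.89), and the share of cells with an Acacb UMI was 6.79%, 19.7% and 56.0% in these stages. In skin all 15 early SEB were at 0 UMIs, 7 intermediate SEB held 1 UMI and 15 late SEB held 23, so that late sSEB were at least 6.85-fold higher, with 3 UMIs taken as the limit for the early group. Acaca, the cytosolic form, was measured at 47.1, 60.7 and 95.4 CPM in PG, a log2 ratio of 1.02 (0.38 to 1.63). With at most 5% mitochondrial UMIs, which left 15 late pSEB, the log2 ratio of Acaca was 0.08. In skin Acaca was close to its counting limit in every SEB stage, with 5 UMIs in early, 2 in intermediate and 2 in late SEB, and no ratio was formed. The level of Acaca was in no class of either tissue above that of late pSEB, and in skin the hair matrix and sheath cells, at 57.1 CPM (47.3 to 68.4), lay above the keratinocytes.

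Fasn and Me1 were higher in late than in early SEB of both tissues. Fasn was measured at 220 CPM in early, 354 in intermediate and 866 in late pSEB, a log2 ratio of 1.98 (1.75 to 2.21), and 53.2%, 75.8% and 86.0% of the cells held a UMI. In skin the levels were 28.1, 192 and 452 CPM (2, 8 and 36 UMIs), a log2 ratio of 4.01 (2.05 to 7.11). Me1 was measured at 353, 512 and 1089 CPM in PG, a log2 ratio of 1.62 (1.43 to 1.82). Its skin levels were 14.0, 72.1 and 402 CPM (1, 3 and 32 UMIs), a log2 ratio of 4.84 (2.26 to 10.19). The 3 UMIs of intermediate sSEB came from 1 cell.

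Olah was detected in every SEB stage of PG and in no SEB of skin. It was measured at 371 CPM (339 to 405) in early, 715 (681 to 751) in intermediate and 1224 (1115 to 1341) in late pSEB, with UMIs in 145 of 265, 280 of 385 and 49 of 50 cells. The late over early log2 ratio was 1.72 (1.54 to 1.91). In skin, 0 of 37 SEB held an Olah UMI, which allows up to 15.6 CPM when 3 UMIs are taken as the limit. The 8899 kept cells of skin held 14 Olah UMIs in 10 cells, of which 11 were in suprabasal keratinocytes (8 cells) and 2 in 1 basal keratinocyte.

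In PG, 7 of the 9 assessed genes were at least 2-fold higher in late than in early SEB, where 9.13% of 8477 genes were higher and 26.6% lower. The 7 genes were Acly, Acaca, Acacb, Fasn, Olah, Me1 and Acss2, and each had an interval without 0. Their median, over all 9, was a log2 ratio of 1.72 against -0.34 for all assessed genes. The 1 gene lower by that fold was Mlxipl, at 9 UMIs in early and 1 in late pSEB, with a log2 ratio of -1.37 (-6.82 to 1.48). In skin, 6 of 6 assessed genes were at least 2-fold higher in late SEB, where 22.7% of 2011 genes were higher and 20.3% lower, and the median log2 ratio was 3.30 against 0.06. Each of the 6 had 0 to 9 UMIs in early sSEB and reached the limit of 10 UMIs only through late sSEB. Acaca, with 5 UMIs in early and 2 in late sSEB, was not assessed. The count of 6 of 6 and its median are therefore partly set by that limit. Under a stricter gate 2 early sSEB remained, with 0 UMIs of Acly, Fasn, Me1, Slc25a1, Acss2 and Acacb. Their limit of 406 CPM is too high for a bound of 2-fold, so the skin ratios could not be read under that gate.

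**Figure D2:**
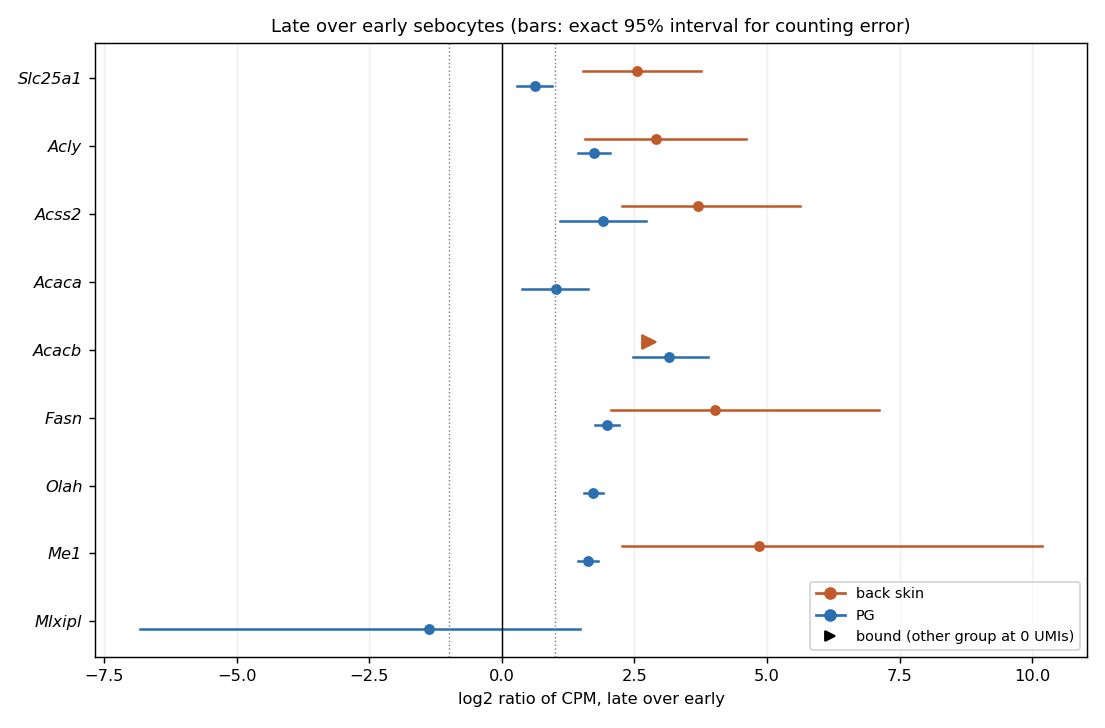
Log2 ratio of CPM between late and early SEB for the genes with at least 10 UMIs, in back skin and PG, with exact 95% intervals for counting error. Dotted lines mark 2-fold and triangles mark bounds against a group at 0 UMIs. All ratios lie above 0 except that of Mlxipl in PG, and the skin intervals are wider than those of PG.

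Within pSEB, 5 of the genes increased in level with the marker share of a cell, read over 5 bins of the UMIs of all 11 sebocyte markers per 10000 UMIs. From the lowest bin (37.1 to 60 per 10000, 122 cells) to the highest (200 and over, 81 cells), Olah was measured at 163, 367, 632, 1081 and 1317 CPM. Fasn was measured at 160, 230, 319, 461 and 774 CPM, Me1 at 212, 366, 476, 607 and 1066 CPM, and Acly at 97.3, 140, 218, 302 and 420 CPM. Acacb went from 7.79 through 13.6, 37.6 and 85.2 to 138 CPM. These 5 genes had a higher level in each bin than in the one before, and Slc25a1 did so up to the fourth bin, at 183, 231, 343, 359 and 348 CPM, where the last 3 intervals overlap. Acss2 (13.6, 25.5, 37.6, 30.4 and 68.9 CPM) and Acaca (38.9, 55.0, 42.3, 83.2 and 96.7 CPM) had overlapping intervals between neighbouring bins, except for Acaca between the third and the fourth. The median UMI count of a cell also rose, from 4043 in the lowest to 7555 in the highest bin, and its part in the pattern was not tested. CPM is relative to the depth of the cells in a bin.

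**Figure D3:**
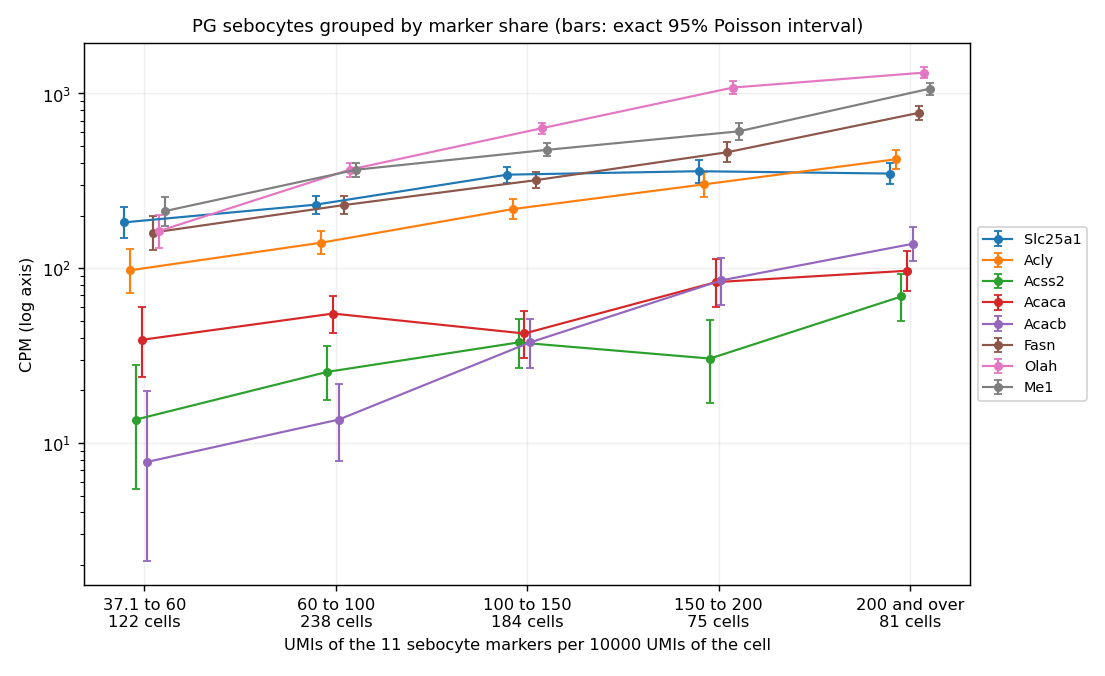
Level (CPM, logarithmic axis) of 8 genes in 700 pSEB, divided into 5 bins of the share of the 11 sebocyte markers, with exact 95% Poisson intervals. Olah, Fasn, Me1, Acly and Acacb are higher in each bin than in the one before. Heights of different genes are not compared here.

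Single cells carried few of these UMIs. After every cell was thinned to 1000 UMIs, a median of 3 of the 10 genes had a UMI in late pSEB, 1 in intermediate and 1 in early pSEB, and 1 in late and 0 in early sSEB. Olah was then found in 68.0% of late pSEB (53.3 to 80.5), 35.1% of intermediate pSEB, 24.5% of early pSEB and 2.11% of PG fibroblasts. Fasn was found in 46.0% of late pSEB (31.8 to 60.7), 19.2% of early pSEB and 4.91% of fibroblasts. Before thinning, Olah had a UMI in 98.0% of late pSEB and 3.33% of fibroblasts, and Fasn in 86.0% and 9.30%. The median late pSEB held 8217 UMIs and the median PG fibroblast 1349. In late sSEB, thinned, Slc25a1 and Acly were each found in 33.3% of the cells (11.8 to 61.6), against 2.61% and 6.30% of skin fibroblasts.

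Between late SEB of the tissues, genes past 2-fold went in both directions, in counts not far from the shares over all assessed genes. The late groups are not matched stages. The median late sSEB held 198 sebocyte marker UMIs per 10000 and the median late pSEB 322. Of the UMIs of late markers, Awat2 gave 2743 of 3703 in late pSEB, and Cidea gave 285 of 532 in late sSEB. The part of these differences in the ratios was not tested. Of 8 assessed genes, 3 were at least 2-fold higher in late pSEB, where 24.2% of 4099 genes were, and 2 were lower, where 18.1% were. The median log2 ratio of PG over skin was 0.39, against 0.08 over all assessed genes. Olah was at least 32.5-fold higher in late pSEB (462 against 0 UMIs), Me1 was 2.71-fold higher (1089 against 402 CPM, log2 1.44, 0.92 to 2.01) and Acaca was 3.80-fold higher with an interval that just reached 0 (36 against 2 UMIs, log2 -0.03 to 5.03). Fasn was 1.92-fold higher in late pSEB (866 against 452 CPM, log2 0.94, 0.44 to 1.48). With at most 5% mitochondrial UMIs, which left 7 late sSEB and 15 late pSEB, the log2 ratio was 0.77 for Me1 and -0.13 for Fasn.

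Acss2 and Slc25a1 were higher in late sSEB. Acss2, which uses acetate, was 9.47-fold higher in late sSEB (728 against 76.8 CPM, log2 of PG over skin -3.24, -3.94 to -2.58), with UMIs in 11 of 15 late sSEB and 20 of 50 late pSEB. Slc25a1, which exports citrate, was 2.37-fold higher in late sSEB (740 against 313 CPM, log2 -1.24, -1.71 to -0.77). After each cell was thinned to 1000 UMIs, the log2 ratio of Slc25a1 was -0.07. Acacb was 1.70-fold higher in late sSEB (log2 -0.77, -1.47 to -0.01). Acly, which makes acetyl-CoA from citrate, was measured at 527 CPM in late sSEB and 469 CPM in late pSEB, and the interval of the log2 ratio (-0.66 to 0.35) leaves out a 2-fold difference in either direction. Exons of Acss2 overlap those of Ggt7, Gss and the antisense gene Acss2os on the opposite strand by 197, 163 and 222 bases, and late sSEB held 0 UMIs of all 3 of these genes. Late pSEB held 14 UMIs of Gss beside 29 of Acss2, and 0 of Ggt7 and Acss2os. Whether the counting used strand is not given in the sources used here.

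In the counts before subtraction of free RNA, a higher level in PG was also seen outside SEB for several genes. In fibroblasts, PG over skin gave a log2 ratio of 2.12 (1.55 to 2.71) for Fasn, 1.94 (1.35 to 2.55) for Me1, 1.66 (1.11 to 2.22) for Slc25a1, 0.79 (0.41 to 1.16) for Acly and at least 32.3-fold for Olah (50 against 0 UMIs). When the ratio in late SEB was divided by that in fibroblasts, Me1 went from 1.44 to -0.50, Fasn from 0.94 to -1.18 and Slc25a1 from -1.24 to -2.90. For Acss2 the fibroblast ratio was -0.25 (-1.31 to 0.73), near 0. The fibroblast ratios and the division by them rest on counts before subtraction of free RNA. The share of free RNA in the UMIs of PG fibroblasts was estimated at 27.7%. At that share and its levels below, it would bring more Olah and Me1 than the 50 and 73 UMIs found. The estimate is therefore too high. The part of free RNA in these ratios was not tested. Free RNA, counted in barcodes of at most 100 UMIs, held 418 CPM of Olah, 468 of Me1, 121 of Acly, 117 of Fasn and 105 of Slc25a1 in PG, and 0.175, 46.0, 45.8, 23.0 and 20.5 CPM in skin.

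Keratinocytes and fibroblasts of PG held more UMIs of Fasn, Acly, Me1 and Slc25a1 per Olah UMI than free RNA did. For each Olah UMI, free RNA held 0.280 Fasn UMIs and 0.289 Acly UMIs. Basal keratinocytes held 1.3 Fasn and 1.13 Acly UMIs, and fibroblasts held 1.70 and 2.26. For Me1 the value was 1.12 in free RNA, 3.47 in basal keratinocytes and 1.46 in fibroblasts. In late pSEB the values were 0.708 for Fasn, 0.383 for Acly and 0.890 for Me1. Subtracting free RNA took away an estimated 27.7% of the UMIs of PG fibroblasts, 20.9% of PG keratinocytes, 3.91% of early pSEB and 1.5% of late pSEB. At 20.9%, the Olah UMIs to be taken away outnumbered the 295 that PG keratinocytes held, and the value was set to 0. The estimates for PG keratinocytes and fibroblasts are therefore too high, and this 0 is no measure of Olah there. After the subtraction, 2 of the 9 genes assessed in pSEB against PG keratinocytes, Olah among them, had only a bound. The estimates rest on markers of non-epithelial classes. In PG keratinocytes the contractile markers, which can raise that estimate, stood at 2.31 per 10000 UMIs, above the 1.55 of free RNA. Fibroblast and immune markers stood at 0.648 and 0.234 there, against 8.34 and 6.05 in free RNA. In PG fibroblasts contractile and immune markers stood at 1.35 and 0.437. An estimate without contractile markers was not made.

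**Figure D4:**
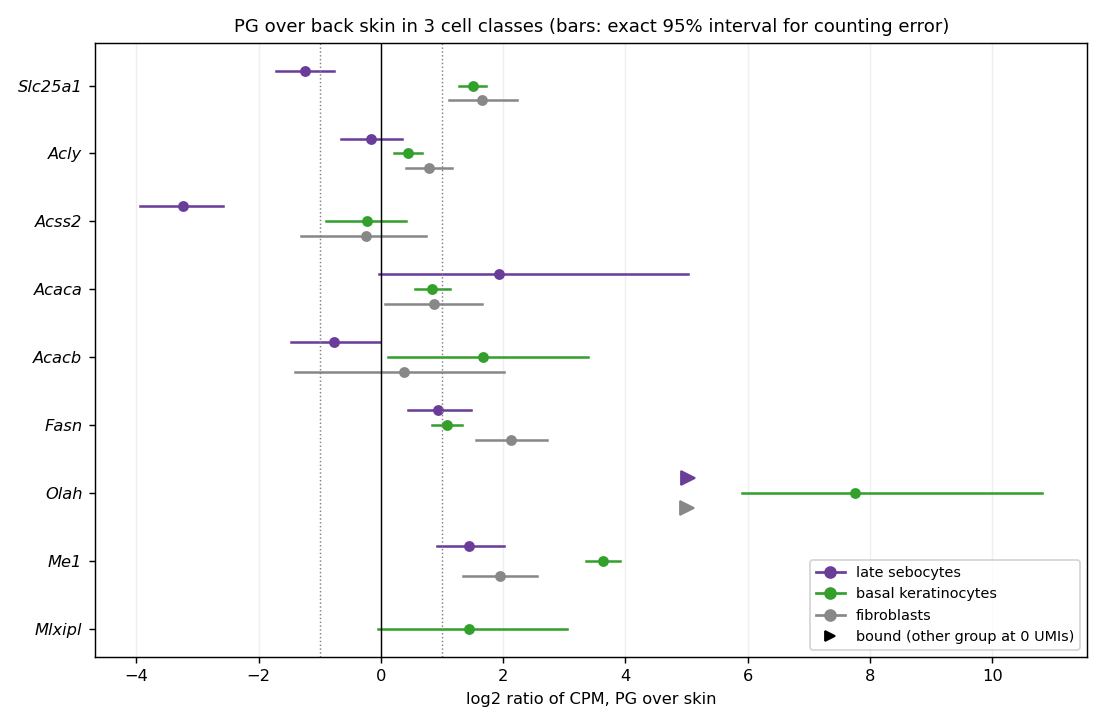
Log2 ratio of CPM, PG over back skin, of the genes with at least 10 UMIs in late SEB, basal keratinocytes and fibroblasts, with exact 95% intervals for counting error and triangles for bounds against a group at 0 UMIs. Slc25a1 lies below 0 in late SEB and above 0 in the other classes. Acss2 lies below -2 only in late SEB, and Olah lies above 4 in each. All counts are before subtraction of free RNA.

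Early SEB of PG and skin were compared with 5 or fewer UMIs a gene in skin for most genes. The early groups also differed in their share of the sebocyte markers. The median early sSEB held 30.7 marker UMIs per 10000, under the SEB limit of PG (37.1), and the median early pSEB held 72.0. Within pSEB, Fasn, Me1, Acly and Olah rose with this share, and its part in the ratios of early SEB was not tested. Of 7 assessed genes, 4 were at least 2-fold higher in early pSEB, where 14.3% of 6594 genes were, and 1 was lower, where 23.4% were. Olah was at least 8.81-fold higher (488 against 0 UMIs). Fasn gave a log2 ratio of 2.97 (1.10 to 6.02) and Me1 of 4.65 (2.17 to 9.96), from 2 and 1 UMIs in skin. The ratios of Acly (1.0, -0.25 to 2.64), Slc25a1 (0.69, -0.26 to 1.83), Acaca (-0.57, -1.87 to 1.10) and Acss2 (-1.45, -2.97 to 0.52) had intervals with 0. The median log2 ratio was 1.0 against -0.21 over all assessed genes, and under the stricter gate the 2 early sSEB held no UMI of Acly, Fasn, Olah or Me1, so that these ratios could not be read.

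In skin several genes were higher in suprabasal keratinocytes, the differentiating layers of the epidermis, than in basal ones. Me1 was measured at 111 CPM (104 to 119) in 1726 suprabasal and 11.3 CPM (9.39 to 13.5) in 3830 basal keratinocytes, 9.84-fold higher. Acly was 2.62-fold higher (87.7 against 33.5 CPM), Fasn 2.08-fold (49.7 against 23.9 CPM) and Acaca 1.69-fold (31.4 against 18.5 CPM). Olah had 11 UMIs in suprabasal and 2 in basal keratinocytes, a log2 ratio of 3.1 (0.91 to 6.32). Me1 in suprabasal keratinocytes was near its level in skin muscle cells, 123 CPM (71.6 to 197). In PG the order was the other way round for Me1 and Fasn. Me1 was measured at 95.6 CPM in 276 suprabasal and 140 CPM in 2062 basal keratinocytes (log2 -0.55, -0.83 to -0.28), and Fasn at 35.4 and 50.6 CPM (-0.51, -0.99 to -0.07). The median log2 ratio of suprabasal over basal keratinocytes in PG was -0.44 for the 8 assessed genes, against -0.53 over all assessed genes. PG free RNA held 468 CPM of Me1 and 117 CPM of Fasn, and its part in the PG ratios was not tested. Whether the tissues differ in the suprabasal over basal ratio was not tested.

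Basal keratinocytes of PG lay above those of skin for Me1 by 12.4-fold (140 against 11.3 CPM), for Slc25a1 by 2.82-fold, for Fasn by 2.11-fold, for Acaca by 1.79-fold and for Acly by 1.36-fold. Olah was measured at 40.3 CPM in basal keratinocytes of PG and 0.185 CPM (2 UMIs) in those of skin, a log2 ratio of 7.76 (5.90 to 10.82). Acss2 was measured at 4.98 and 5.84 CPM. Free RNA of PG held 468 CPM of Me1 and 418 CPM of Olah. Its estimated share of 20.9% of the UMIs of PG keratinocytes is too high, as given above. At that estimate the Olah of PG keratinocytes was set to 0, which is no measure of Olah there. All levels and ratios of this paragraph hold for the counts before subtraction, and the part of free RNA in them was not tested.

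Hair matrix and sheath cells of skin held 62.4 CPM of Fasn (52.1 to 74.1), 60.5 CPM of Acly, 57.1 CPM of Acaca and 37.0 CPM of Slc25a1, with 3.84 CPM of Me1 (8 UMIs) and no UMI of Acacb or Olah. In their Fasn and Acaca levels they lay above basal and suprabasal keratinocytes of skin, and in Me1 they lay below both. Acly was also measured at 69.8 CPM (58.2 to 83.0) in skin fibroblasts and 55.1 CPM (36.6 to 79.7) in skin immune cells, and the intervals of the 3 classes overlap.

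Thrsp and Mlxipl were scarce in SEB. Thrsp UMIs were found in 0 of 37 sSEB and 0 of 700 pSEB. With 3 UMIs taken as the limit, this allows levels of up to 15.6 and 0.762 CPM. Thrsp was found in endothelial cells, with 13 UMIs in 11 of 73 cells of skin (79.0 CPM, 42.1 to 135) and 15 UMIs in 13 of 45 cells of PG (197 CPM, 110 to 324). All kept cells held 37 Thrsp UMIs in skin and 25 in PG. Of these, 10 in skin and 2 in PG lay in cells that passed a non-epithelial class together with another class. A further 10 and 4 lay in cells that passed no class. At least 1 adipocyte marker had a UMI in 3 of the 11 Thrsp-positive endothelial cells of skin and 5 of the 13 of PG. Over all endothelial cells, the adipocyte list held 4 UMIs over 2 of 5 markers in skin and 24 UMIs over 3 of 5 markers in PG, with Plin1 and Lep at 0 in both. The part of adipocyte RNA in the Thrsp level was not tested. Mlxipl was found in 1 of 37 sSEB and 12 of 700 pSEB, 9 of them early, and its level in early pSEB was 6.84 CPM (3.13 to 13.0).

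The wider pathway was read from 27 further genes, among them Srebf transcription factors and their regulators, NADPH-producing enzymes, mitochondrial fatty acid synthesis and the enzymes that desaturate and elongate palmitate. In late against early pSEB, 5 of 24 assessed genes were at least 2-fold higher, where 9.13% of all assessed genes were, and 4 were lower, where 26.6% were, with a median log2 ratio of 0.06 against -0.34. Insig1, a sterol-sensing brake on Srebf processing, was 6.02-fold higher in late pSEB (201 against 33.4 CPM). The pentose phosphate enzymes G6pdx (127 against 38.0 CPM) and Pgd (323 against 133 CPM), which make NADPH, were 3.35- and 2.43-fold higher, whereas Tkt, a transketolase of the same pathway, was lower (257 against 572 CPM, log2 -1.16, -1.48 to -0.85). Mlycd, which degrades malonyl-CoA, was 2.21-fold higher.

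Srebf1, the transcription factor that drives lipogenic genes, was lower in late pSEB, at 119 CPM against 417 CPM in early pSEB, a log2 ratio of -1.80 (-2.28 to -1.36). In skin it was measured at 138 CPM in late and 154 CPM in early SEB (11 UMIs each), with an interval of -1.51 to 1.19. Nr1h2, a liver X receptor, was lower in late pSEB (2 against 34 UMIs, log2 -2.29, -5.39 to -0.32), and Mbtps2, a protease that releases Srebf proteins, stood at 1 against 16 UMIs with an interval that included 0. Scd1, the desaturase, was 6.08-fold higher in late pSEB (10871 against 1788 CPM), but it is a marker of the gate.

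In skin, 9 of 13 assessed pathway genes were at least 2-fold higher in late SEB and none was lower, where 22.7% and 20.3% of all assessed genes were, with a median log2 ratio of 1.5 against 0.06. Scd1, a marker of the gate, is among the 9. Elovl6, which elongates palmitate, was measured at 5283 CPM in late and 267 CPM in early sSEB, a log2 ratio of 4.31 (3.65 to 5.05). Taldo1 (916 against 323 CPM), Pgd (176 against 28.1 CPM), Cs (251 against 70.2 CPM) and Pdha1 (226 against 84.2 CPM), enzymes of the pentose phosphate and citrate routes, were 2.84-, 6.26-, 3.58- and 2.68-fold higher. Insig1 was at least 5.36-fold higher (18 against 0 UMIs), Scd1 was 8.75-fold higher, and Srebf2 and Mid1ip1 had intervals with 0. Elovl6 was at 0 UMIs in late pSEB, so that late sSEB were at least 665-fold higher. In late SEB of PG against skin, 3 of 19 assessed pathway genes were 2-fold higher (Scap, G6pdx and Mecr) and 3 were lower (Insig2, Mid1ip1 and Elovl6), where 24.2% and 18.1% of all assessed genes were. The marker share differs between the tissues in late and in early SEB, as given above. In early SEB, 8 of 20 were higher and 3 lower. Of all assessed genes, 14.3% and 23.4% were. Against keratinocytes, 14 of 26 were higher and 2 lower in pSEB (7.58% and 21.6% of all assessed genes), and 14 of 22 were higher and none lower in sSEB (20.7% and 15.0%). Scd1, which the gate used, is among the 14 in both tissues.

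The genes whose levels were most like those of Fasn, Acly and Olah were sought among 8490 genes by Pearson correlation of log2(CPM + 10) over 21 classes and stages of both tissues. The points share 2 libraries and differ in depth, and the coefficients are given as a description. For Fasn, 4 of the 5 were Hacd2 (r = 0.948), which acts in very long chain elongation, Idi1 (0.921) of isoprenoid synthesis, Hsd17b12 (0.914), also of elongation, and Adtrp (0.910). For Acly they were Cdr2 (0.924), Ebp (0.899), Mvk (0.860), Tmem41b (0.851) and Ccdc47 (0.850), of which Ebp and Mvk act in sterol synthesis. For Olah, 4 of the 5 were Acot5 (0.958), Pecr (0.940), Pdss1 (0.931) and Agps (0.922), which act on peroxisomal fatty acyl-CoA, on ubiquinone side chains and on ether lipids. Acot5 and Agps, like Olah, had no UMI in late sSEB and stood at 1153 and 3304 CPM in late pSEB.

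By their places in the genome, the 10 genes are spread over 6 chromosomes of GRCm38 (mm10). Acly (11:100476353-100528000), Acaca (11:84129672-84401651) and Fasn (11:120805846-120824547) lie on chromosome 11, Acacb (5:114146535-114250761) and Mlxipl (5:135089890-135138382) on chromosome 5, and Olah (2:3341982-3397210) and Acss2 (2:155517948-155585724) on chromosome 2. Me1 lies at 9:86581371-86695953, Thrsp at 7:97412938-97417730 and Slc25a1 at 16:17925223-17928219. Exons of Me1 overlap those of the antisense gene A330041J22Rik by 30 bases, with 8 UMIs of that gene beside 411 of Me1 in late pSEB.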

How the data were processed

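For each tissue the authors deposited 1 matrix of raw UMI counts per gene and barcode, made with Cell Ranger 4 on mm10 (per the file headers and the submitters' processing notes), without normalization or a filter on cells. Depth was 37675226 UMIs in skin and 26288071 in PG. The labels name the same 3′ kit for both, but the barcode lists differ (6794880 and 737280 barcodes, 77142 in both). Whether the kit version differed is not known here, and its part in the ratios of PG over skin was not tested. The study's methods name filters on UMIs and mitochondrial counts without limits, so limits were set here. UMIs were summed by class and given as CPM. Levels have exact Poisson intervals, shares of cells exact Clopper-Pearson intervals, and ratios exact binomial intervals, all at the 95% level. A group at 0 UMIs was given a limit of 3 counts per group. Each fold given as "at least" uses that limit and leaves out the counting error of the other group. The exact 95% interval reaches further, to 46.3 instead of 37.6 CPM for Olah in late sSEB, so these folds are not 95% bounds. Doublets were not removed in the main values. A gene counted as higher or lower at 2-fold.

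A marker class was assigned when its share passed 20 per 10000 UMIs, or a higher limit set from free RNA. Suprabasal keratinocytes needed a share of 50, without a limit from free RNA. Late SEB needed a share of late markers of at least 20 and early SEB one under 5. A cell that passed several epithelial classes took the first of hair matrix and sheath, SEB, suprabasal and basal keratinocyte. SEB could therefore also pass the limits of keratinocytes. Cells that passed a non-epithelial class together with any other class, or no class, were left out. The limits of the gate were set after the data had been seen, and the genes, the pathway list and the comparisons were chosen with earlier results of these data known. Named were all 10 genes, the pathway genes past 2-fold in late against early SEB of either tissue, and the 5 genes most like Fasn, Acly and Olah, of which 2 are not reported here. Genes were placed by symbol on GRCm38 annotation, and upstream sequences came from RefSeq.

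On simulated counts for late against early pSEB (3822 genes), 96.5% of the intervals held the true ratio, 99.5% of the 4-fold genes passed 2-fold and 1.46% of the unchanged genes did. Alternatives varied the cell limits, doublets (634 cells of skin and 177 of PG removed), scaling, free RNA, gate, Leiden clusters (leidenalg 0.10.2, igraph 0.11.9), thinning, fold and a division by the fibroblast ratio. Python 3.11.15, numpy 2.4.6, scipy 1.17.1, pandas 2.3.3, scikit-learn 1.9.0 and matplotlib 3.10.9 were used.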

Additional observations from a re-analysis of the deposited data

How the results depend on the processing

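No paired analysis was possible because each tissue has 1 library and the labels give no replicate numbers. Of the counts of genes under the alternatives, 218 stayed within 1.5 times the main count and 30 did not. Of the log2 ratios of single genes, 529 stayed within the counting interval of the main value (for a bound, within 0.5 of it) and 82 did not, and 5 ratios changed sign under an alternative. In late SEB of PG against skin these were Fasn (0.94), at -0.13 with at most 5% mitochondrial UMIs and at -1.18 after division by the fibroblast ratio, Me1 (1.44), at -0.50 after that division, and Acly (-0.17) and Acacb (-0.77), at 0.10 and 0.58 after thinning. In early SEB it was Slc25a1 (0.69), at -0.97 after the division. Of the CPM levels in late and early SEB, 475 stayed within their counting interval and 75 did not. The most frequent setting among the latter, with 23 of 40 levels, was CPM without the most abundant genes, which raised Olah in late pSEB from 1224 to 2033 CPM and Acss2 in late sSEB from 728 to 1238 CPM. The counts for SEB against keratinocytes, 8 genes higher in PG and 7 in skin, stayed within 1.5 times under every alternative run, and no gene was lower in either tissue. The causes of the changes below were not tested, except where fewer cells or a changed fold make them.

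For late against early SEB of PG, the 7 higher genes became 1 at 4-fold. The 1 lower gene, Mlxipl, became 0 at 4-fold and with a looser gate (log2 -0.87). The count was also 0 with 1000 genes and 2000 UMIs, a mitochondrial share of at most 5%, an upper limit on UMIs, Leiden clusters, a stricter gate, thinning to 1000 UMIs or a moved stage limit, where Mlxipl had under 10 UMIs and was not assessed. The 5 higher pathway genes became 9 at 1.5-fold and 2 at 4-fold, and the 4 lower ones became 2 at 5% mitochondrial UMIs and 2 at 4-fold. For skin under the stricter gate, 0 of the 6 higher genes could be called: the 5 assessed ones had 0 UMIs in the 2 early sSEB, and their lower bounds lay under 2-fold. After thinning none of the 10 genes reached 10 UMIs there, so no count was formed. The 9 pathway genes became 3 of 7 assessed under the stricter gate, 4 of 4 assessed after thinning and 4 at 4-fold.

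For late SEB of PG against skin, the 3 higher genes became 1 at 5% mitochondrial UMIs, where Acaca was not assessed, 1 at 4-fold, and 1 after division by the fibroblast ratio, where Olah, a bound, was left out. The 2 lower genes became 1 with the mean CPM of cells and at 4-fold, and 4 after division by the fibroblast ratio. After thinning the count was 0, with Acss2 at 4 and 3 UMIs not assessed, and under the other alternatives its log2 ratio lay between -3.58 and -2.93. For early SEB, the 4 higher genes became 0 under the stricter gate, where 2 genes were assessed and Olah was a bound under 2-fold, and 1 after division, again without Olah. The 1 lower gene, Acss2, became 0 at 4-fold and 2 after division, and 0 after thinning, where it was not assessed. Leiden clusters gave no value for late against early SEB of skin or for early SEB of PG against skin, since no cluster of early sSEB was found. The 37 sSEB held 192553 UMIs in all, so that a gene at 0 UMIs there is limited to 15.6 CPM.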

Other observations

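Cells outside the named classes also held the genes. In skin, 1160 cells that passed no class held 58.3 CPM of Acaca (50.8 to 66.6) and 51.0 CPM of Fasn (44.0 to 58.8), near the hair matrix and sheath cells at 57.1 and 62.4 CPM. In PG, 703 such cells held 105 CPM of Olah (91.2 to 120) and 173 CPM of Me1 (155 to 193), between the levels of basal keratinocytes and early pSEB. The 21 contractile cells of PG held 236 CPM of Acly (102 to 464, 8 UMIs in 7 cells), and the 19 of skin held 0 UMIs.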
